A study of Mus musculus with 78 samples.

Results

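The comparison is between the epiblast and the visceral endoderm of mouse embryos grown for 4 days outside the uterus. The libraries were chosen by their labels alone: 2 of cultured epiblast and 2 of cultured visceral endoderm, 4 of the 78 samples of the series, all measured by RNA-seq. The cultured embryos came from C57BL/6N females, superovulated with 5 IU of each of 2 hormones (PMSG and hCG) and crossed with DBA/2N males. They were flushed from the uterus at embryonic day (E) 4.5 and kept in CMRL 1066 medium containing 20% fetal bovine serum, 1 mM glutamine and 1 mM pyruvate. After digestion with trypsin and pancreatic enzyme the tissues were parted by hand, and the cells were lysed without a separate RNA extraction before poly(A) RNA was made into libraries by a Smart-Seq2 type of protocol. Epiblast and visceral endoderm taken from embryos at E6.5 and at E5.5, 2 libraries each, served as the in vivo reference. Those embryos were of the same cross but came from natural matings, and their RNA was purified on columns. The cultured embryos, flushed at E4.5 and grown for 4 days, were also not matched in age to either stage. Culture, age, the mode of mating and the RNA preparation therefore cannot be told apart between the cultured and the in vivo groups. The labels do not say whether the 2 libraries of a group came from separate litters, so p-values measure only spread between libraries, which may be technical. That spread was estimated for each gene over all 15 RNA-seq groups together, other stages included, and not from the compared libraries alone.

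The epiblast is the pluripotent cup of cells from which the body of the embryo forms. The visceral endoderm is the polarised epithelium that wraps it. It takes up maternal protein by endocytosis through receptors such as cubilin, digests it in lysosomes, packages lipid in apolipoprotein particles and secretes serum proteins, much as the yolk sac and liver do later. A part of it, the anterior visceral endoderm, secretes inhibitors of Nodal and Wnt signalling that pattern the epiblast. As implantation passes, the epiblast leaves naive pluripotency for a formative and then a primed state and raises its de novo DNA methyltransferases.

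Values are FPKM, fragments per kilobase of transcript scaled to the number of mapped fragments, as deposited, and the first value of each pair is replicate 1. Differences are epiblast minus visceral endoderm on the log2(FPKM + 1) scale, with a standard error (n = 2 libraries per group) and a Benjamini-Hochberg adjusted p from limma. On this scale the difference of a gene that is low in one tissue is understated, and none is given for a gene where a tissue was listed at 0 in both libraries; such genes do enter the medians of lists, which therefore depend on the 1 FPKM added. A gene was called when the adjusted p was under 0.05 and the difference was at least 1 in size. Of 13493 genes tested, 3300 were called between the cultured tissues (24.5%), 1463 of them higher in the epiblast (10.8%) and 1837 lower (13.6%). The median difference over all genes tested was 0.02. When only the 4 cultured libraries and their own spread entered the fit, 1619 genes were called, 803 higher and 816 lower, and 60 of the 183 called genes named here did not pass, Apoc2, Dnmt3b, Utf1, Uhrf1, Mixl1, Lhx1, Bmp2, H19 and Igf2 among them. In that fit the anterior visceral endoderm list had 2 called members in place of 9, the primitive streak list 2 in place of 9, the DNA methylation list 1 in place of 8 and the immediate early list 1 in place of 8, while the endocytic and lysosomal list had 23 in place of 27. Other lists that fell by over 1.5 times included BMP (10 to 4), Wnt (12 to 6), Nodal (7 to 3) and imprinted genes (13 to 7). Endoderm transcription factors fell from 15 to 9, serum carriers from 13 to 8 and definitive endoderm genes from 11 to 5. The neural ectoderm and trophoblast lists each fell from 7 to 3, and the microvillar and parietal lists each from 11 to 7. The depth of the libraries is unknown, since the file holds no counts.

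The 2 cultured epiblast libraries were closely alike, with a Pearson r of 0.98 across genes, and the 2 cultured visceral endoderm libraries less so, with r of 0.948. Between the visceral endoderm libraries 308 genes (2.28%) were apart by at least 2 on the log2 scale, 218 of them higher in replicate 1 and 90 in replicate 2. The corresponding number was 30 for cultured epiblast and 30 for visceral endoderm at E6.5. Genes are not independent replicates, and these correlations describe the libraries only. Results that turn on this split are given with both visceral endoderm values and, where a named call ended or the larger count of a list moved by over 1.5 times, without the library concerned.

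The tissue labels were first set against marker genes. Summed over 8 epiblast markers, the FPKM were 1874 and 1963 in the epiblast libraries against 446 and 80.8 in the visceral endoderm libraries. Summed over 13 visceral endoderm markers, they were 1.3 and 3.7 against 4486 and 2644. Both tissues thus carried the markers of their label. The markers were chosen with earlier results of these data known, so this is not an independent check of the labels. All 13 visceral endoderm markers were called higher in visceral endoderm, and 6 of 8 epiblast markers were called higher in epiblast. The other two were Otx2 (81.1 and 79.2 FPKM in epiblast, 128 and 6.31 in visceral endoderm) and Fgf5 (82.9 and 55.4 against 111 and 6.55), both at epiblast level in visceral endoderm replicate 1. Primitive streak and mesoderm markers summed to 251 and 30.0 FPKM in the visceral endoderm libraries against 11.4 and 8.01 in the epiblast. Blood and endothelial markers summed to at most 2.96 FPKM in any of the 4 libraries and trophoblast markers to at most 27.4.

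Parietal endoderm markers, by contrast, were abundant in the visceral endoderm libraries, with sums of 993 and 806 FPKM against 18.0 and 24.4 in the epiblast. At E6.5 the sums for visceral endoderm were 528 and 671, and the 2 tables were scaled separately. Sparc, a matrix glycoprotein, gave 305 and 419 FPKM in cultured visceral endoderm, and Srgn, a proteoglycan core protein, gave 646 and 327. Thbd, which marks parietal endoderm and trophoblast giant cells, was listed at 0 in all 4 cultured libraries. Sparc and Srgn thus made up most of the sum in each cultured visceral endoderm library. Of the 6 parietal markers 4 were called higher in visceral endoderm. In a bulk sample more cells of a type and more RNA per cell cannot be told apart, and whether parietal cells were carried over was not tested.

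**Figure D1:**
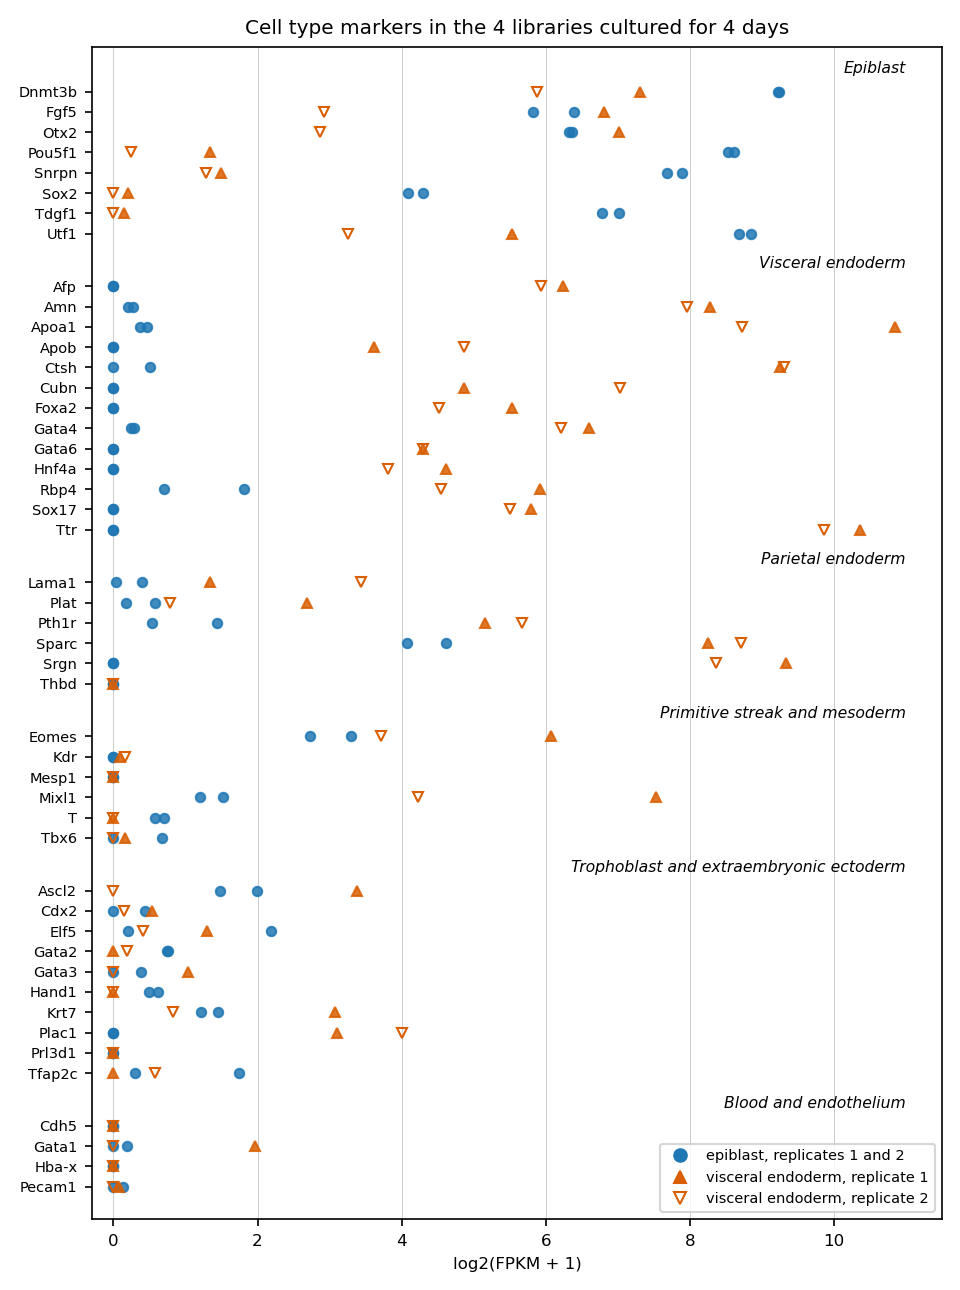
Level of each cell type marker in the 4 cultured libraries, on the log2(FPKM + 1) scale (x axis), grouped by the cell type it marks; circles are the 2 epiblast libraries, filled triangles visceral endoderm replicate 1 and open triangles replicate 2. All 13 visceral endoderm markers lie to the right in both visceral endoderm libraries, and Otx2 and Fgf5 are at epiblast level in visceral endoderm replicate 1 only.

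Pou5f1, which encodes the pluripotency factor OCT4, led the genes higher in cultured epiblast. Its level was 368 and 390.0 FPKM in epiblast and 1.54 and 0.187 in visceral endoderm, a difference of 7.77 ± 0.92 (adjusted p = 2.49e-06). The groups did not overlap. Ifitm2, a small membrane protein known as an antiviral restriction factor, was at 206 and 282 FPKM against 0.432 and 0.534 (7.35 ± 0.66, adjusted p = 8.22e-08). Tdgf1, the Nodal co-receptor also called Cripto, was at 109 and 129 against 0.102 and 0 (6.83 ± 1.44, adjusted p = 0.00126). Snrpn, a paternally expressed imprinted gene for a splicing protein, was at 205 and 237 against 1.81 and 1.43 (6.41 ± 0.66, adjusted p = 4.25e-07). The remaining 8 of the 12 genes with the greatest difference were Ifitm3, the amino acid transporter Slc7a3, the G protein subunit Gng3, the tubulin Tubb4a, the nucleotide synthesis enzyme Prps1, the deubiquitinase Uchl1, the kinase Pim2 and Wfdc2. Their epiblast values ran from 31.1 FPKM for Wfdc2 to 483 and 588 for Pim2, and no visceral endoderm value exceeded 17.7. None of the 12 calls was lost when any 1 of the 4 libraries was left out. All were also called at E6.5 in the same direction.

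Among 15 core pluripotency genes tested, 9 were higher in cultured epiblast and none was lower, with a median difference of 1.92. Sox2, the partner of OCT4 on DNA, was at 15.9 and 18.6 FPKM in epiblast and 0.156 and 0 in visceral endoderm (4.08 ± 0.63, adjusted p = 5.84e-05). Utf1, a chromatin-bound pluripotency factor, was at 411 and 458 against 45.1 and 8.58 (4.37 ± 0.53, adjusted p = 3.15e-06). Foxd3, a forkhead factor needed to maintain the epiblast, was low in absolute terms at 5.48 and 5.24 against 0 and 0.0976 (2.60 ± 0.28, adjusted p = 7.44e-07). L1td1, an RNA-binding protein, was present on both sides, at 52.1 and 55.1 against 11 and 16.3 (1.92 ± 0.40, adjusted p = 0.00103). Dppa4 and Zfp281 completed the group together with Nanog. Zfp281 was at 16.9 and 20.5 against 7.68 and 4.59, a call lost without epiblast replicate 2 (adjusted p = 0.0529) and without visceral endoderm replicate 2 (adjusted p = 0.0809). Sall4 and Lin28a were not called and were high in both tissues: Sall4 stood at 119 and 115 FPKM in epiblast and 145 and 96.4 in visceral endoderm, and Lin28a at 44.6 and 38 and 28.5 and 52.9.

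Nanog, the homeodomain factor of the same network, was listed at 0 in both visceral endoderm libraries and at 42.7 and 18.5 FPKM in the epiblast (adjusted p = 0.000215). Its promoter is shown because the composite site on which OCT4 and SOX2 bind side by side lies within it, and the genes for both factors separated the tissues in the same direction. The 250 bases before the start of transcription run over chr6:122707315-122707564 on the + strand of RefSeq's mouse assembly GRCm38.p6, and are printed 5′ to 3′ with the match to the motif in capitals.
Nanog: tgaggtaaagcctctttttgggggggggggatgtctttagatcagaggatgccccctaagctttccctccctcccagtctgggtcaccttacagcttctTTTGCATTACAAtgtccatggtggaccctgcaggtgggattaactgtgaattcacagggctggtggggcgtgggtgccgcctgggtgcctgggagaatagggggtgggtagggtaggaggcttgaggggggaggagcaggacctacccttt
The motif searched, on both strands, was TTTGCAT followed after 1 base of any kind by ACAA. The match in Nanog, TTTGCATTACAA, lies at -151 to -140 counted from the start. Of 32851 such promoter windows in the table, 11 held the motif (0.0335%), and they belong to 9 genes. Nanog has 2 such windows, and the one with the higher start coordinate is printed. Of those 9 genes 6 were tested: Nanog, Nrarp and Pipox were called higher in epiblast, none was called lower, and Astn1, Exoc1 and Idua were not called. Over all genes tested 10.8% were higher and 13.6% lower, and 6 genes are too few to set against these shares. Nanog, whose promoter prompted the search, is itself among the genes called. The call of Nrarp was lost without epiblast replicate 1 and without visceral endoderm replicate 2. A match is a description of letters in the window, not of binding in these embryos.

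The list of formative and primed epiblast genes gave 11 of 19 tested higher in cultured epiblast and 2 lower, with a median of 2.46. Pou3f1, the POU factor OCT6, was at 23 and 25.4 FPKM against 0.187 and 0.225 (4.38 ± 0.37, adjusted p = 3.5e-08). Dnmt3b, the de novo DNA methyltransferase, was at 602 and 596 against 157 and 57.8 (2.64 ± 0.52, adjusted p = 0.000688). Sox3 was at 5.16 and 5.14 against 1.13 and 0, the epithelial factor Grhl2 at 6.12 and 4.52 against 0.147 and 0.133, the secreted Wnt modulator Sfrp2 at 9.41 and 10.8 against 0.0979 and 0, and the carbonic anhydrase Car14 at 24.5 and 52.2 against 2.28 and 0.463, all 4 with adjusted p at or below 0.00116. For each of these genes both epiblast libraries lay above both visceral endoderm libraries. The 2 members called lower were Cdh2, N-cadherin, at 0.797 and 0.302 against 19.4 and 1.82, and Cldn6, a tight junction protein, at 94.9 and 179 against 892 and 741. The call of Cdh2 was lost without epiblast replicate 2 (adjusted p = 0.0637) and without visceral endoderm replicate 1 (adjusted p = 0.247), and that of Cldn6 without epiblast replicate 1 (adjusted p = 0.101) and without visceral endoderm replicate 1 (adjusted p = 0.0528). Without epiblast replicate 2 the list had 7 members higher and 1 lower. Lef1, the Wnt effector, differed widely, 12.3 and 16.4 FPKM against 0.0526 and 0.0632, but did not pass (adjusted p = 0.0783); it passed with 0.1 FPKM added in place of 1, with array weights and in the fit of the 4 cultured libraries only.

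The naive pluripotency list gave 1 of 15 higher and 5 lower in cultured epiblast and a median of -0.01. Tbx3 was at 0.0474 and 0 FPKM in epiblast and 16.6 and 11.7 in visceral endoderm (-3.87 ± 0.62, adjusted p = 8.11e-05). Tfcp2l1 was at 0.0756 and 0.0985 against 5.07 and 6.4 (-2.62 ± 0.45, adjusted p = 0.000186), Klf5 at 4.51 and 1.77 against 27.6 and 24.4 (-2.78 ± 0.48, adjusted p = 0.000194), and Zfp42, the marker REX1, at 0.859 and 0.75 against 3.2 and 3.2 (-1.22 ± 0.32, adjusted p = 0.00722). These are transcription factors of the naive network, and the visceral endoderm held the higher level of each. Klf4, the fifth, was at 0 and 0.315 against 1.91 and 5.57 and lost its call without epiblast replicate 1 (adjusted p = 0.168), without epiblast replicate 2 (adjusted p = 0.0818) and without visceral endoderm replicate 2 (adjusted p = 0.271). The member called higher was Fgf4, the growth factor that epiblast sends to neighbouring tissues, at 3.48 and 9.08 against 0 and 0 (adjusted p = 0.0105), a call lost without epiblast replicate 2 (adjusted p = 0.118) and without visceral endoderm replicate 2 (adjusted p = 0.0509). Esrrb, Klf2, Nr5a2, Spic and Prdm14 were listed at 0.215 FPKM or less in all 4 libraries.

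The 12 genes with the greatest difference toward visceral endoderm included carrier and lipid-binding proteins, proteases, endocytic genes and a transcriptional co-regulator. Ttr, the thyroid hormone carrier transthyretin, was listed at 0 in both epiblast libraries and at 1318 and 931 FPKM in visceral endoderm (adjusted p = 1.32e-11). Apoa1, the main protein of high density lipoprotein, was at 0.293 and 0.386 FPKM in epiblast and 1839 and 424 in visceral endoderm (-9.37 ± 1.09, adjusted p = 1.91e-06). Ctsh, the lysosomal protease cathepsin H, was at 0 and 0.422 against 607 and 629.9 (-9.02 ± 0.64, adjusted p = 2.58e-09). Cited1, a transcriptional co-regulator, was at 2.31 and 1.07 against 743 and 868 (-8.26 ± 0.49, adjusted p = 2.8e-10). Apom, Srgn, Apoc2, the pepsinogen Pga5, the calcium binder S100g and the galectin Lgals2 were listed at 0 in both epiblast libraries and at 76.3 FPKM or more in both visceral endoderm libraries. Amn and Dab2, described with the endocytic genes, complete the 12 genes with the greatest difference. No call among these 12 was lost when any of the 4 libraries was left out (Apoc2 alone was lost in the fit of the 4 libraries only), and all 12 were called in the same direction at E6.5. In all, 45 genes were listed at 0 in both epiblast libraries and at 10 FPKM or more in both visceral endoderm libraries, and 16 genes showed the reverse.

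Of 15 apolipoprotein and lipid export genes tested, 12 were higher in cultured visceral endoderm and none in epiblast, with a median of -4.24. Apoe was the most abundant, at 2476 and 2516 FPKM against 31.2 and 68 in epiblast (-5.73 ± 0.45, adjusted p = 1.1e-08). Mttp, which loads lipid onto apolipoprotein B, was at 70.8 and 115 against 0 and 0.397 (-6.27 ± 0.36, adjusted p = 2.32e-10), and Soat2, which esterifies cholesterol, at 65.6 and 62.8 against 0 and 0.156 (-5.92 ± 0.41, adjusted p = 2.15e-09). Apob, Apoa4 and Apoc3 were listed at 0 in both epiblast libraries, and in visceral endoderm at 11.2 and 28 FPKM for Apob, 103 and 45.8 for Apoa4 and 15.6 and 14.1 for Apoc3. The visceral endoderm libraries differed for single carriers. Apoc2 was at 76.3 and 2018 and Apoa1 at 1839 and 424, in opposite order.

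Serum and secreted carriers gave 13 of 16 higher in visceral endoderm and none in epiblast, with a median of -2.25. Afp, the fetal serum protein alpha-fetoprotein, was at 74.7 and 60.1 FPKM against 0 and 0 (adjusted p = 7.64e-09), and Fgb, the fibrinogen beta chain, at 24.9 and 17.2 against 0 and 0 (adjusted p = 1.52e-10). Coagulation factor F10 was at 7.36 and 7.22 against 0 and 0 (adjusted p = 1.11e-09). Rbp4, the retinol carrier, was at 59.3 and 22.4 against 0.63 and 2.5 (-3.98 ± 0.71, adjusted p = 0.000245), and Sepp1, which transports selenium, at 129.5 and 146 against 7.58 and 8.43 (-3.94 ± 0.83, adjusted p = 0.00119). The iron carrier Trf was not called in culture, at 4.87 and 1.69 against 0 and 0.14 (adjusted p = 0.0768). It passed after quantile normalization and with array weights. At E6.5, scaled separately, Trf was at 182 and 222 in visceral endoderm and 0.887 and 1.22 in epiblast. The test of the tissue difference in culture against that at E6.5, given below, did not call Trf.

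Genes of uptake and digestion were nearly all on one side: 27 of 30 endocytic and lysosomal genes tested were higher in cultured visceral endoderm and none in epiblast, with a median difference of -3.01. Amn, the anchor of the cubilin receptor, was at 310.2 and 248 FPKM against 0.154 and 0.202 (-7.88 ± 0.69, adjusted p = 5.27e-08). Dab2, the adaptor that brings such receptors into coated pits, was at 920.2 and 953 against 4.14 and 3.46 (-7.61 ± 0.83, adjusted p = 8.19e-07). Cubn, cubilin itself, was listed at 0 in epiblast and at 28.2 and 130.1 in visceral endoderm (adjusted p = 1.05e-07). The proteases followed, Lgmn at 474 and 798 against 11.4 and 10.8 (-5.67 ± 0.45), Ctsl at 1144 and 1937 against 26 and 39.3 (-5.50 ± 0.44), Ctsc at 508 and 270.1 against 0.504 and 5.01 (-6.95 ± 0.63) and Ctsb at 178 and 279.8 against 3.07 and 9.45 (-5.10 ± 0.49), with adjusted p of 1.59e-07 or less. Unlike the secreted carriers, most of these genes had measurable FPKM in the epiblast as well. Lrp2, the large partner receptor megalin, was at 7.36 and 56.1 against 1.97 and 2.88 (adjusted p = 0.0144) and lost its call without epiblast replicate 1 (adjusted p = 0.0922) and without visceral endoderm replicate 2 (adjusted p = 0.304).

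Of 14 microvillar and apical surface genes, 10 were higher in visceral endoderm, with a median of -1.93. Vil1, the actin bundler villin, was at 40.8 and 37.6 FPKM against 0.0784 and 0.102 (-5.20 ± 0.29, adjusted p = 1.74e-10). The mucin Muc13 and the protease Tmprss2 were listed at 0 in epiblast, and in visceral endoderm Muc13 was at 43.6 and 25.1 FPKM and Tmprss2 at 75.7 and 59.8. Ezr, which links membrane to actin, was expressed by both, at 196 and 101 against 26 and 35.1 (-2.19 ± 0.41, adjusted p = 0.000379). The single member called higher in epiblast was Mal2, a transcytosis protein, at 5.51 and 6.5 in epiblast against 0.409 and 0 (2.56 ± 0.54, adjusted p = 0.00115).

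Of 19 endoderm transcription factors 15 were higher in visceral endoderm and none in epiblast, with a median of -2.93. Gata4 was at 96 and 73.2 FPKM against 0.215 and 0.187 (-6.14 ± 0.43, adjusted p = 2.28e-09). Hnf4a, Foxa2, Sox7, Gata6 and Sox17 were all listed at 0 in both epiblast libraries. In visceral endoderm they were at 23.6 and 13 for Hnf4a, 45.3 and 21.8 for Foxa2, 22.9 and 32.7 for Sox7, 18.6 and 18.7 for Gata6 and 54.6 and 44.4 for Sox17, with adjusted p of 2.84e-05 or less. The call of Tcf7l2 was lost without epiblast replicate 2 (adjusted p = 0.0521) and without visceral endoderm replicate 1 (adjusted p = 0.224), and that of Eomes without epiblast replicate 2 (adjusted p = 0.0922) and without visceral endoderm replicate 1 (adjusted p = 0.301). Cebpb, Cebpa, Nr2f2 and Nr1h4 were not called.

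**Figure D2:**
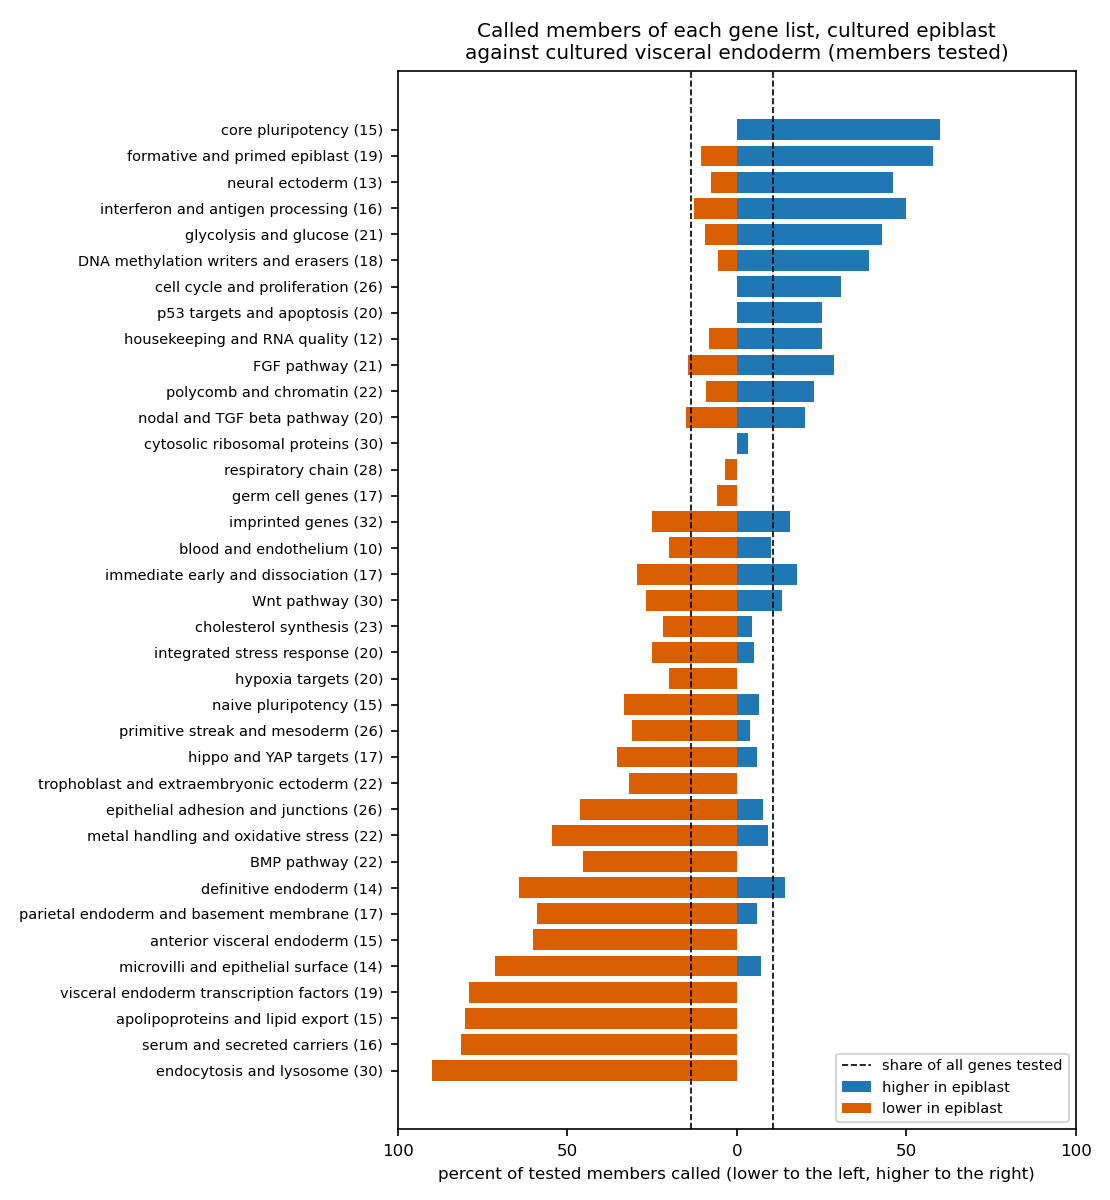
Share of the tested members of each gene list called higher (to the right) or lower (to the left) in cultured epiblast than in cultured visceral endoderm, in percent; dashed lines mark the shares over all 13493 genes, 10.8% higher and 13.6% lower. The apolipoprotein, endocytic and serum carrier lists lie farthest to the lower side, and the core pluripotency and formative lists to the higher side.

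The anterior visceral endoderm list divided the 2 visceral endoderm libraries. Of 15 genes tested 9 were higher in visceral endoderm and none in epiblast, and 8 of the 15 were at least 2 log2 units higher in visceral endoderm replicate 1 than in replicate 2. None was that much higher in replicate 2. Dkk1, a Wnt inhibitor, was at 91.1 and 23.2 FPKM against 0 and 0.147 in epiblast (-5.46 ± 0.57, adjusted p = 4.44e-07). Amot, an adaptor of the Hippo pathway, was at 137 and 60.3 against 0.927 and 0.773 (-5.64 ± 0.54, adjusted p = 1.49e-07), and the homeodomain factor Hhex at 73.6 and 18.4 against 3.21 and 0.382 (-3.98 ± 0.61, adjusted p = 5.52e-05). These 3 were well above the epiblast in both visceral endoderm libraries. Lhx1, by contrast, was at 51.5 and 1.66, the Wnt inhibitor Sfrp5 at 63.4 and 4.39 and Gsc at 48.4 and 2, with replicate 2 within 5 FPKM of the epiblast values of 0 and 0, 0.135 and 0 and 0.707 and 0.31. The call of Gsc was lost without visceral endoderm replicate 1 (adjusted p = 0.072). Cer1, a secreted Nodal inhibitor, was at 17.5 and 0.415 FPKM against 0 and 0, a call lost without epiblast replicate 1 (adjusted p = 0.0974), without epiblast replicate 2 (adjusted p = 0.0913) and without visceral endoderm replicate 1 (adjusted p = 0.62). Sfrp1 was not called, at 83.3 and 2.42 against 2.52 and 5.22 (adjusted p = 0.121).

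The same visceral endoderm library held the higher level of several genes known from the primitive streak, the site where mesoderm and definitive endoderm arise. Of 26 tested, 8 were lower in epiblast and 1 higher, with 4 lower and 2 higher without visceral endoderm replicate 1 and 5 lower and 1 higher without epiblast replicate 2. Mixl1, a homeodomain factor of the streak, was at 184 and 17.8 FPKM in visceral endoderm and 1.86 and 1.29 in epiblast (-4.53 ± 0.68, adjusted p = 4.37e-05). Eomes was at 66.3 and 12.1 against 8.87 and 5.64 and Fgf8, a growth factor of the streak, at 88 and 4.15 against 21.2 and 10.7, the latter not called (adjusted p = 0.767). Without visceral endoderm replicate 1 the sign of Fgf8 turned, with epiblast higher by 1.65 (adjusted p = 0.0393). Pdgfra, the receptor of primitive endoderm and mesoderm, ran the other way between the libraries, at 2.47 and 15.5 against 0 and 0.141 (-2.82 ± 0.49, adjusted p = 0.000205). T, the general marker of the streak, was listed at 0 in both visceral endoderm libraries and at 0.62 and 0.487 in epiblast (adjusted p = 0.291), and Mesp1, the marker of early mesoderm, was listed at 0 in all 4. Etv2, the factor that specifies blood vessel progenitors, was the member called higher in epiblast, at 5.15 and 2.5 against 0 and 0 (adjusted p = 0.00262). Epiblast markers summed to 446 FPKM in replicate 1 and 80.8 in replicate 2, and within that sum Pou5f1 was at 1.54 and 0.187. In E6.5 visceral endoderm, scaled separately, epiblast markers summed to 467 and 432 and streak and mesoderm markers to 128 and 191. The anterior visceral endoderm list summed to 756 and 136 in cultured visceral endoderm and to 1428 and 1750 at E6.5. The part of the library split in these results was not tested beyond leaving each library out.

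**Figure D3:**
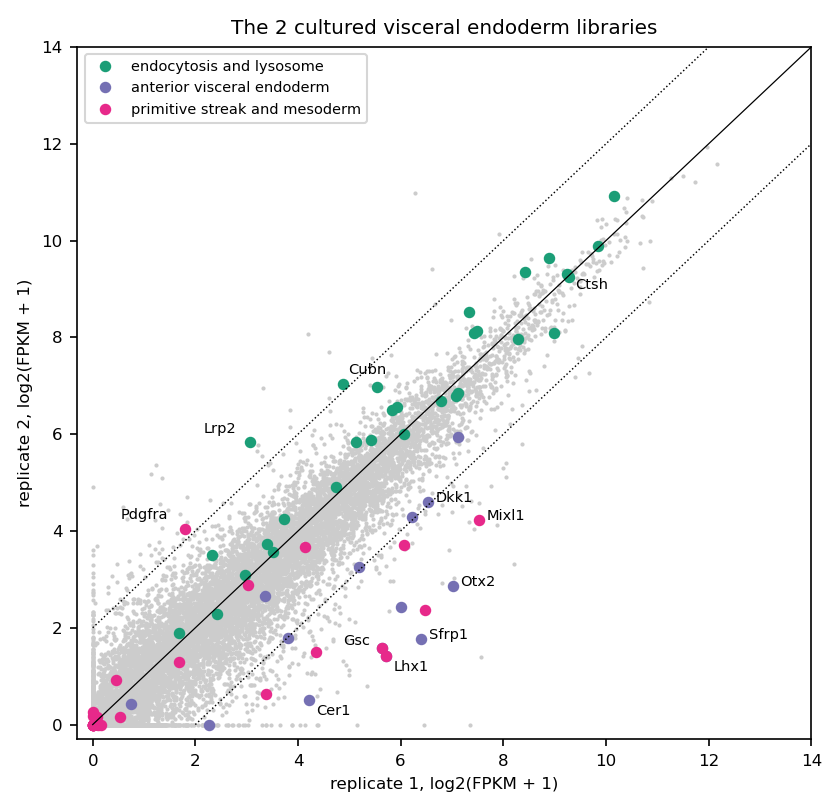
Each gene's level in cultured visceral endoderm replicate 1 (x axis) and replicate 2 (y axis), log2(FPKM + 1); points are genes, coloured for 3 of the gene lists, the solid line marks equal levels and dotted lines a gap of 2 on the log2 scale. Genes below the lower dotted line, such as Lhx1 at 51.5 and 1.66 FPKM, are high in replicate 1, and 218 genes are that far below the solid line against 90 above it.

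In the Nodal pathway 4 of 20 genes were higher and 3 lower in cultured epiblast, and 2 were higher and 3 lower without epiblast replicate 2 or without visceral endoderm replicate 2. Both EGF-CFC co-receptors were called, in opposite directions: Tdgf1 in epiblast, with the values above, and Cfc1 in visceral endoderm, at 105 and 57.8 FPKM against 0.274 and 1.08 (-5.60 ± 0.49, adjusted p = 5.78e-08). The ligand Gdf1 was at 5.06 and 12.6 in epiblast against 0.367 and 0.0375 (2.93 ± 0.44, adjusted p = 3.7e-05). Smad2, a transducer of the pathway, was higher in visceral endoderm, at 10.7 and 9.86 against 3.74 and 2.82 (-1.40 ± 0.33, adjusted p = 0.00313), whereas Smad3, its relative, was at 1.96 and 1.77 in epiblast against 0.25 and 0.215 (adjusted p = 0.0209). The call of Smad3 was lost without any 1 of the 4 libraries (adjusted p from 0.0684 to 0.102). The ligand Nodal was not called, at 10.3 and 8.86 in epiblast and 18.3 and 1.12 in visceral endoderm (adjusted p = 0.57). The counts of this and each later list stand beside 10.8% higher and 13.6% lower over all genes tested.

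In the BMP pathway 10 of 22 genes were higher in visceral endoderm and none in epiblast. The ligand Bmp2 was listed at 0 in epiblast and at 25 and 4.26 FPKM in visceral endoderm (adjusted p = 7.46e-06), and the BMP binder Bmper at 0 and 5.83 and 2.86 (adjusted p = 5.1e-05). The downstream factor Msx2 was at 45 and 27.2 against 0.35 and 0.458 (-4.68 ± 0.46, adjusted p = 2.31e-07). The inhibitory Smad6 was at 3.42 and 5.56 against 0.33 and 0.216 (-2.08 ± 0.43, adjusted p = 0.00096), and the receptor Bmpr2 at 2.35 and 5.72 against 0.399 and 0.738 (-1.61 ± 0.34, adjusted p = 0.00134). Id1, the target gene most often read for the pathway, was at 212 and 196 against 38.2 and 44 (adjusted p = 0.04), a call lost without any 1 of the 4 libraries (adjusted p from 0.112 to 0.155).

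FGF pathway genes gave 6 of 21 higher and 3 lower in epiblast. Receptors were called on both sides. Fgfr1 was at 12.1 and 14.2 FPKM in epiblast against 0.728 and 0.437 (3.17 ± 0.39, adjusted p = 4.05e-06). Fgfr4 was at 0.233 and 0.101 in epiblast against 10.3 and 10.1 (-3.26 ± 0.31, adjusted p = 1.76e-07), and Fgfr3 at 0 and 0.318 against 3.18 and 10.3 (-2.58 ± 0.41, adjusted p = 6.84e-05). Dusp6, the phosphatase induced by FGF signalling, was at 78.5 and 55.7 against 18.2 and 1.06 (3.42 ± 0.68, adjusted p = 0.000691). Among ligands, Fgf17 was higher in epiblast (2.31 and 2.02 against 0.238 and 0; 1.51 ± 0.28, adjusted p = 0.00037) and Fgf10 was listed at 0 in epiblast and at 24.7 and 6.06 in visceral endoderm (adjusted p = 7.16e-06). Without epiblast replicate 2 the list had 3 higher and 3 lower.

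Of 30 Wnt pathway genes 4 were higher and 8 lower in epiblast. The receptor Fzd2 was at 3.27 and 4.97 FPKM in epiblast and listed at 0 in visceral endoderm (adjusted p = 1.37e-05), and the repressor Tcf7l1 was at 25.1 and 27.5 against 9.85 and 2.29 (2.19 ± 0.39, adjusted p = 0.000278). On the visceral endoderm side stood Dkk1 and Sfrp5, given above, the receptor Fzd5 (13 and 2.44 against 0.381 and 0.71; -2.18 ± 0.46, adjusted p = 0.00131), the ligand Wnt11 (3.53 and 6.62 against 0 and 0.116; -2.47 ± 0.34, adjusted p = 1.46e-05), the amplifier Rspo3 (10.2 and 3.28 against 0.625 and 0.545; -2.13 ± 0.41, adjusted p = 0.000521) and the inhibitor Frzb (4.51 and 2.87 against 0.757 and 0.22; -1.66 ± 0.37, adjusted p = 0.00204). In the fit of the 4 cultured libraries only, the calls of Tcf7l1, Sfrp5, Fzd5, Rspo3 and Frzb ended. The list then had 6 called members in place of 12.

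Of 32 imprinted genes 5 were higher and 8 lower in cultured epiblast, with a median of -0.21, where 10.8% of all genes tested were higher and 13.6% lower. Higher in epiblast were Snrpn, Snurf, Magel2 and Ndn, from the cluster linked to Prader-Willi syndrome, and Nnat. Snurf, which shares a transcript with Snrpn so that reads may be split between them and the pair is not 2 separate members, was at 12.3 and 14 FPKM against 0.381 and 0.495 (3.30 ± 0.39, adjusted p = 2.28e-06). Ndn was at 14.4 and 19.7 against 0.853 and 1.77 (2.98 ± 0.55, adjusted p = 0.000387), and Magel2 at 2.56 and 1.87 against 0 in both visceral endoderm libraries (adjusted p = 3.16e-06). Nnat, from another cluster, was at 13.9 and 19.3 against 0.384 and 0.234 (3.73 ± 0.60, adjusted p = 8.52e-05). Ube3a, the maternally expressed neighbour of the Snrpn cluster in neurons, was not called, at 16.4 and 16.4 against 9.67 and 13.1 (adjusted p = 0.36).

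On the visceral endoderm side stood both maternally and paternally expressed genes. Igf2, the paternally expressed growth factor, was at 5.29 and 18.8 FPKM against 1.4 and 0.171 (-2.73 ± 0.48, adjusted p = 0.000223), and H19, its maternally expressed neighbour, at 68.5 and 133 against 8.25 and 0.743 (-4.59 ± 0.54, adjusted p = 2.5e-06). Peg10 was at 4.45 and 16.3 against 0.141 and 0.0461 (-3.15 ± 0.36, adjusted p = 1.43e-06), and Sgce, beside it on the chromosome, was listed at 0 in epiblast and at 14.6 and 8.52 in visceral endoderm (adjusted p = 1.09e-05). Airn was at 0 against 1.28 and 2.94 (adjusted p = 1.94e-05); it overlaps Igf2r on the other strand, and no source used here says that reads were counted by strand. Igf2r, the receptor that clears Igf2, was at 3.7 and 8.87 against 0.419 and 1.09, a call lost without epiblast replicate 1 (adjusted p = 0.0849) and without visceral endoderm replicate 2 (adjusted p = 0.118). Grb10 was at 73.5 and 12.4 against 6.64 and 9.08, a call lost without epiblast replicate 1 (adjusted p = 0.116) and without visceral endoderm replicate 1 (adjusted p = 0.436). Peg3 was at 45.9 and 49.5 against 14.3 and 10.2, a call lost without epiblast replicate 2 (adjusted p = 0.0529). In the fit of the 4 cultured libraries only, the calls of Igf2, H19, Peg10, Airn, Igf2r and Grb10 ended. The imprinted list then had 7 called members in place of 13. The FPKM do not separate the parental alleles.

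Of 18 genes tested that write, keep or remove DNA methylation, 7 were higher in epiblast, 1 was lower and 10 were not called, with a median of 0.78. Beside Dnmt3b, Uhrf1, which brings the maintenance methyltransferase to new DNA, was at 52.3 and 60 FPKM against 21.7 and 14 (1.62 ± 0.30, adjusted p = 0.000366), and the repair glycosylase Mbd4 at 6.15 and 8.12 against 0.983 and 2.43 (1.63 ± 0.32, adjusted p = 0.000656). These 3 calls held without any 1 of the libraries but ended in the fit of the 4 cultured libraries only, where Dnmt3a alone of this list was called. Dnmt3a, the second de novo enzyme, was at 29.9 and 38.4 against 2.88 and 5.03 (2.85 ± 0.87, adjusted p = 0.018), Trim28 at 196 and 173 against 93.7 and 54.5 (adjusted p = 0.0198), the demethylating oxidase Tet1 at 6.82 and 6.24 against 1.69 and 2.93 (adjusted p = 0.0382) and the helicase Hells at 101 and 68.5 against 21.7 and 32.6 (adjusted p = 0.0498). The calls of these 4 ended without single libraries. That of Dnmt3a was lost without epiblast replicate 1 (adjusted p = 0.0628), without epiblast replicate 2 (adjusted p = 0.0958) and without visceral endoderm replicate 1 (adjusted p = 0.104), that of Trim28 without epiblast replicate 1 (adjusted p = 0.11), without epiblast replicate 2 (adjusted p = 0.0616) and without visceral endoderm replicate 2 (adjusted p = 0.197), that of Tet1 without epiblast replicate 1 (adjusted p = 0.152), without epiblast replicate 2 (adjusted p = 0.108) and without visceral endoderm replicate 1 (adjusted p = 0.213), and that of Hells without any 1 of the 4 libraries (adjusted p from 0.0816 to 0.245). The list had 3 higher and 1 lower without epiblast replicate 1, and 3 higher and none lower without epiblast replicate 2. Mbd2, a reader of methylated DNA and the member called lower, was at 0.972 and 0.727 against 3.1 and 3.36 (-1.20 ± 0.32, adjusted p = 0.00821), and its call was lost without epiblast replicate 2 (adjusted p = 0.0619).

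Another 9 members named here were not called. Dnmt1, the maintenance enzyme, was at 17.4 and 14.9 FPKM in epiblast and 11.8 and 7.15 in visceral endoderm (0.74 ± 0.27, adjusted p = 0.0452), under the fold that a call required. Dnmt3l, the catalytically inactive partner, was at 1.4 and 1.23 against 0.722 and 0, Tet2 at 0.127 and 0 against 0.214 and 0.116, Tet3 at 1.43 and 1.17 against 1.3 and 2.56, and Zfp57, which guards imprints, at 5.53 and 4.83 against 23.4 and 7.2. Tdg was at 10.4 and 7.47 against 7.68 and 1.97, Uhrf2 at 7.4 and 7.52 against 15.4 and 7.67, Mbd3 at 41.2 and 41.1 against 45.6 and 20.4 and Dppa3 at 0 and 1.48 against 0.293 and 0. Apobec1 did not pass the filter on low values.

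Of 22 polycomb and chromatin genes 5 were higher and 2 lower in epiblast, where 10.8% of all genes tested were higher and 13.6% lower. Phc1, a subunit of polycomb repressive complex 1, was at 78.8 and 67.9 FPKM against 3.11 and 0.535 (4.88 ± 0.89, adjusted p = 0.000305), and Jarid2, which recruits polycomb repressive complex 2, at 16.1 and 14.2 against 3.78 and 1.38 (2.26 ± 0.45, adjusted p = 0.000696). Bmi1, another subunit of the first complex, was lower in epiblast, at 0.876 and 0.792 against 7.64 and 10.7 (-2.45 ± 0.35, adjusted p = 2.65e-05). Phc1 and Bmi1, subunits of the same complex, thus lay on opposite sides. The list had 3 higher and 2 lower without epiblast replicate 1, 3 and 3 without epiblast replicate 2, and 2 and 3 without visceral endoderm replicate 2.

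Cell cycle genes gave 8 of 26 higher in cultured epiblast and none lower. Ccnd1, cyclin D1, was at 27.2 and 25.2 FPKM against 0.292 and 0.585 (4.25 ± 0.54, adjusted p = 5.44e-06). The DNA helicase subunits Mcm2, Mcm3, Mcm5 and Mcm6 were each higher by 1.54 to 1.78, for instance Mcm5 at 135 and 118 against 39.3 and 33.2 (1.78 ± 0.26, adjusted p = 2.92e-05). Myc, from the immediate early list, was at 58.3 and 49 against 6.8 and 5.01 (2.99 ± 0.46, adjusted p = 5.54e-05). Of 20 p53 targets and apoptosis genes 5 were higher and none lower, and 3 were higher without visceral endoderm replicate 2. Bcl2l11, the death inducer BIM, was at 11.3 and 8.64 against 1.27 and 1.74 (2.13 ± 0.30, adjusted p = 1.75e-05) and Zmat3 at 7.37 and 6.01 against 1.84 and 2.46 (1.29 ± 0.25, adjusted p = 0.000691).

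Of 21 genes of glucose metabolism 9 were higher in epiblast and 2 lower, but without epiblast replicate 1 the counts were 2 and 3, without epiblast replicate 2 they were 4 and 2, without visceral endoderm replicate 1 they were 6 and 1, and without visceral endoderm replicate 2 they were 3 and 2. The firm calls were Aldoc, a glycolytic aldolase, at 7.78 and 6.5 FPKM against 0.706 and 0 (2.64 ± 0.49, adjusted p = 0.000419), and Slc2a3, the glucose transporter GLUT3, which was lower in epiblast at 19 and 13.7 against 464 and 707 (-5.06 ± 0.67, adjusted p = 9.11e-06). Gapdh was at 617 and 603 against 270.2 and 304 and lost its call without any 1 of the 4 libraries (adjusted p from 0.0568 to 0.097). Cholesterol synthesis genes gave 1 of 23 higher and 5 lower, with 2 lower without epiblast replicate 1 or without visceral endoderm replicate 2, and 3 lower without either of the other two libraries. Idi1, an enzyme of the isoprenoid steps, was higher in epiblast, at 124 and 109 against 25.3 and 29.1 (2.06 ± 0.33, adjusted p = 7.7e-05). The sterol isomerase Ebp (5.65 and 5.46 against 75.4 and 39.9; -3.09 ± 0.61, adjusted p = 0.0007) and the sterol carrier Stard4 (2.05 and 2.58 against 23.5 and 19.4; -2.76 ± 0.39, adjusted p = 2.23e-05) were lower.

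Of 22 metal handling genes 12 were higher in visceral endoderm and 2 in epiblast. Mt1 and Mt2, the metallothioneins that bind zinc and copper, were at 4029 and 3883 FPKM against 204 and 231 in epiblast for Mt1 and 1348 and 1546 against 129 and 129 for Mt2, differences of -4.18 ± 0.37 and -3.48 ± 0.35 (adjusted p = 5.27e-08 and 3.55e-07). The ferritin chains Fth1 and Ftl1 were at 4596 and 3048 against 633 and 652 for Fth1 and 2899 and 2597 against 718 and 795 for Ftl1 (-2.54 ± 0.24 and -1.86 ± 0.26, adjusted p = 1.44e-07 and 2.21e-05). The zinc importer Slc39a4 was at 57.5 and 37.6 against 0 and 1.18 (-5.01 ± 0.54, adjusted p = 8.41e-07), and the secreted peroxidase Gpx3 at 213 and 293 against 14.4 and 17.8 (-3.88 ± 0.39, adjusted p = 3.2e-07). The members higher in epiblast were Tfrc, the transferrin receptor, at 20.7 and 15 against 1.82 and 8.53 (adjusted p = 0.0104), and Mt3 at 3.42 and 12 against 0 in both visceral endoderm libraries (adjusted p = 0.00233). The call of Tfrc was lost without epiblast replicate 1 (adjusted p = 0.0912) and without visceral endoderm replicate 1 (adjusted p = 0.221), and that of Mt3 without epiblast replicate 2 (adjusted p = 0.0578).

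Of 16 interferon and antigen processing genes 8 were higher and 2 lower in cultured epiblast. Without visceral endoderm replicate 1 the counts were 5 and 0. The immunoproteasome subunits Psmb8 and Psmb9 were at 12.6 and 9.15 FPKM (Psmb8) and 6.46 and 5.03 (Psmb9) in epiblast and listed at 0 in visceral endoderm (adjusted p = 7.71e-09 and 5.11e-05). Irf1, a transcription factor of the interferon response, was at 30.5 and 21.6 against 8.25 and 5.92 (1.74 ± 0.41, adjusted p = 0.00303). Among the members called lower, Bst2 was at 7.32 and 21.1 against 93.1 and 37.2 (adjusted p = 0.0067), a call lost without epiblast replicate 1 (adjusted p = 0.139) and without visceral endoderm replicate 1 (adjusted p = 0.11).

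Of 17 parietal endoderm and basement membrane genes 10 were higher in visceral endoderm and 1, Vim, in epiblast. The collagen chains Col4a1 and Col4a2 were at 24.7 and 45.3 FPKM against 0.356 and 0.79 for Col4a1 and 19.1 and 30.4 against 0 and 0.191 for Col4a2 (-4.47 ± 0.56 and -4.52 ± 0.42, adjusted p = 4.87e-06 and 1.3e-07), and Nid2, a linker of the membrane, at 29 and 40.3 against 2.25 and 5.2 (-2.97 ± 0.45, adjusted p = 4.42e-05). Vim, the intermediate filament vimentin, was at 11.4 and 11.8 in epiblast against 2.05 and 0.913 (adjusted p = 0.0156), a call lost without epiblast replicate 1 (adjusted p = 0.0714), without epiblast replicate 2 (adjusted p = 0.0709) and without visceral endoderm replicate 2 (adjusted p = 0.112). Of 26 adhesion and junction genes 12 were higher in visceral endoderm and 2 in epiblast. Desmoplakin (Dsp) was at 6.98 and 6.19 against 0.243 and 0.0634 (-2.72 ± 0.26, adjusted p = 1.58e-07), desmoglein 2 (Dsg2) at 10.1 and 16.7 against 1.28 and 0.809 (-2.78 ± 0.41, adjusted p = 2.92e-05) and the fibronectin receptor chain Itga5 at 17.9 and 22.6 against 1.43 and 1.5 (-3.10 ± 0.44, adjusted p = 2.13e-05). The claudins Cldn3 and Cldn4 were on the epiblast side, Cldn3 at 2.81 and 4.26 against 0 and 0 and Cldn4 at 2.56 and 4.65 against 0 and 0.265. The call of Cldn3 was lost without epiblast replicate 2 (adjusted p = 0.0911), without visceral endoderm replicate 1 (adjusted p = 0.0524) and without visceral endoderm replicate 2 (adjusted p = 0.057), and that of Cldn4 without epiblast replicate 2 (adjusted p = 0.152), without visceral endoderm replicate 1 (adjusted p = 0.106) and without visceral endoderm replicate 2 (adjusted p = 0.0596).

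Lists of other lineages were counted as well. Of 14 definitive endoderm genes, many of them also visceral endoderm genes, 9 were lower and 2 higher in epiblast, and 5 lower and 3 higher without visceral endoderm replicate 1. The hormone precursor Trh was one of the higher genes, at 21.1 and 24.4 FPKM against 0.15 and 1.09 (3.93 ± 0.95, adjusted p = 0.00376). Of 13 neural ectoderm genes 6 were higher and 1 lower, and 3 higher and 1 lower without epiblast replicate 2. The neuronal tubulin Tubb3 was at 10.2 and 15.2 against 0.232 and 0 (3.60 ± 0.70, adjusted p = 0.000565), and the homeodomain factor Hesx1, also an anterior visceral endoderm gene, was listed at 0 in epiblast and at 35.2 and 8.57 in visceral endoderm. The trophoblast list had 7 of 22 lower in epiblast, and 4 without visceral endoderm replicate 1. The keratin Krt18, which visceral endoderm also makes, was among the 7, at 40.5 and 52.3 against 543 and 276 (-3.04 ± 0.49, adjusted p = 8.93e-05). Germ cell genes had 1 of 17 lower, Prdm1 at 0.0925 and 0 against 3.99 and 0.68, a call lost without visceral endoderm replicate 1 (adjusted p = 0.0753), and blood and endothelium had 1 of 10 higher and 2 lower.

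The other lists stood as follows. Hypoxia targets had 4 of 20 lower in epiblast and none higher, among them Vegfa at 0.094 and 0.368 FPKM against 2.66 and 5.46 (-1.99 ± 0.36, adjusted p = 0.000262). Hippo and YAP targets had 6 of 17 lower and 1 higher, and 4 lower and none higher without visceral endoderm replicate 2. The integrated stress response list had 5 of 20 lower and 1 higher, or 3 lower and 2 higher without visceral endoderm replicate 2 and 5 lower and 2 higher without replicate 1. The immediate early list had 5 of 17 lower and 3 higher, or 4 lower and 1 higher without epiblast replicate 1, 2 lower and 3 higher without epiblast replicate 2 and 3 lower and 3 higher without visceral endoderm replicate 1. Respiratory chain genes had 1 of 28 lower, Uqcrq at 288 and 322 against 1088 and 755 (-1.57 ± 0.27, adjusted p = 0.000204), or 2 without epiblast replicate 2 and 3 without visceral endoderm replicate 1. Of 30 cytosolic ribosomal proteins 1 was higher and none lower, with a median difference of 0.81, and 6 were higher without visceral endoderm replicate 1 and none without replicate 2. Of 12 housekeeping genes 3 were higher and 1 lower, or 1 and 1 without either visceral endoderm library. Over all genes tested 10.8% were higher and 13.6% lower in epiblast. Most genes in these lists, like most of all genes tested, were not called.

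The same comparison at E6.5 gave 2231 calls (16.5%), 938 higher in epiblast (6.95%) and 1293 lower (9.58%). It shares no library with the cultured comparison, and its values come from a table that was scaled separately, so that levels across the tables are given side by side and only the differences within each are tested against each other. The 2 comparisons do share the spread estimated for each gene in 1 fit, so their calls are not fully independent. Of the genes called, 1704 were called in both with the same direction, 689 higher and 1015 lower in epiblast. They make up 51.6% of the calls in culture and 76.4% of those at E6.5. Called in opposite directions were 2 genes, of which the kinase Pdk2 was at 2.55 and 2.47 FPKM in epiblast against 7.85 and 6.17 in culture and 3.99 and 3.93 against 0.836 and 1.47 at E6.5. The call of Pdk2 in culture was lost without any 1 of the 4 libraries. Without E6.5 visceral endoderm replicate 2 the shared calls numbered 1100.

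**Figure D4:**
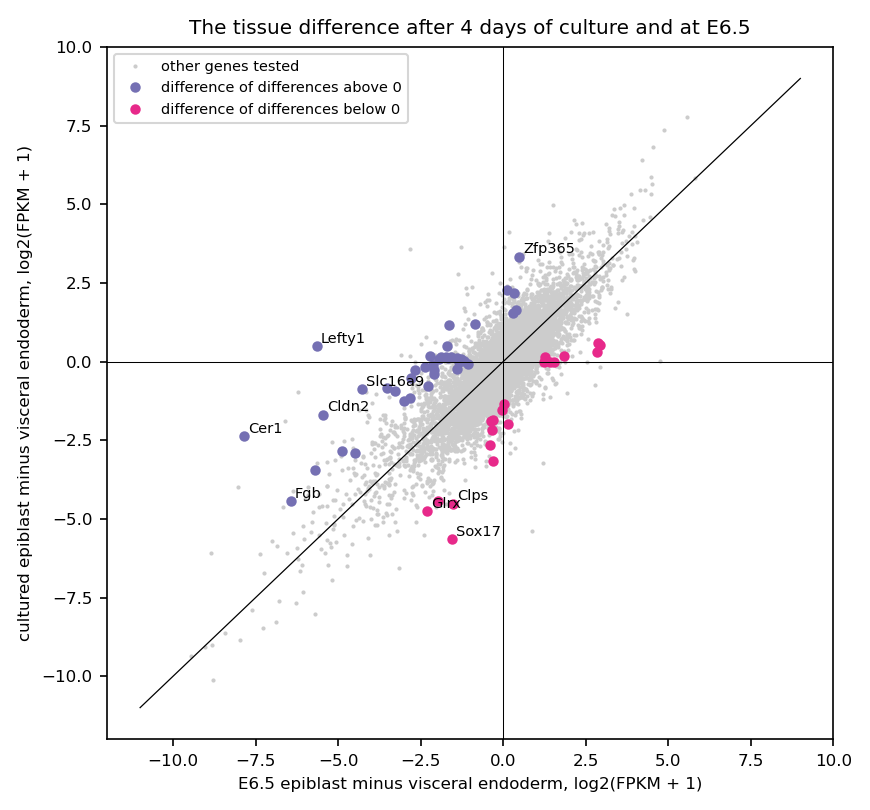
Difference between epiblast and visceral endoderm on the log2(FPKM + 1) scale, at E6.5 (x axis) and after culture (y axis); grey points are genes tested, the diagonal marks equal differences, and coloured points are the 59 genes whose 2 differences were apart by the test. The 39 genes above 0 lie to the upper left of the diagonal, Lefty1 and Cer1 farthest, and the 20 below 0 to its lower right, among them Sox17 and Clps.

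The difference between the 2 contrasts was tested gene by gene, and 59 of 13493 genes passed (0.437%), 39 with a difference above 0 (0.289%) and 20 below (0.148%). An unadjusted p under 0.05 was reached by 970 genes. Of the 39, 33 were called higher in visceral endoderm at E6.5, and 24 of these were not called in culture. Of the 20, 12 were called higher in visceral endoderm in culture and 8 were called higher in epiblast at E6.5 but not in culture. The count of 59 is sensitive to the libraries: without cultured visceral endoderm replicate 1 it was 246, without E6.5 visceral endoderm replicate 2 it was 36 and without cultured epiblast replicate 1 it was 39. It was 17 when only genes with at least 1 FPKM in 2 of the 4 cultured libraries were tested, and 19 when 0.1 FPKM was added in place of 1. Of the 12 genes named next, only Glrx passed with 0.1 FPKM added, and the sign of Fgg turned.

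Lefty1 and Cer1 encode inhibitors of Nodal made in the anterior visceral endoderm. Lefty1 was at 208 and 207 FPKM in visceral endoderm at E6.5 and at 3.78 and 0 in culture, with epiblast at 3.87 and 2.51 and 2.37 and 1.82. Its difference of differences was 6.15 ± 1.36 (adjusted p = 0.0452). Cer1 was at 423 and 453 at E6.5 and 17.5 and 0.415 in culture, with epiblast at 0.432 and 1.55 and 0 and 0 (adjusted p = 0.0155). In both genes the E6.5 visceral endoderm libraries were alike and the cultured libraries were low, replicate 2 most of all. The Lefty1 call was lost in 7 of the 8 fits that left out 1 library and the Cer1 call in 5. The visceral endoderm libraries differed for Cer1, as given above.

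Several others of the 39 encode transporters, junction proteins and secreted proteins of visceral endoderm. Cldn2, a claudin of leaky epithelia, was at 43.8 and 49.1 FPKM in E6.5 visceral endoderm and 1.71 and 2.8 in culture (adjusted p = 1.41e-05). The transporter Slc16a9 was at 18.5 and 20.9 against 0.937 and 0.752 (adjusted p = 1.82e-06). The fibrinogen chains were at 6.27 and 6.65 for Fga, 88.2 and 95.6 for Fgb and 32 and 28.8 for Fgg at E6.5, and at 0.79 and 1.77, 24.9 and 17.2 and 5.22 and 8.1 in culture, with adjusted p of 0.00372, 0.00389 and 0.0394. Fibrinogen was still called higher in visceral endoderm than in epiblast in culture for all 3 chains. On the log2(FPKM + 1) scale the tissue difference in culture and at E6.5 thus differed in size and not in direction. In culture the call of Fga was lost without visceral endoderm replicate 2, on the required fold and not on the adjusted p. The call for Fgg was lost in 7 of the 8 fits without 1 library. Zfp365 was the one gene of the 6 with the greatest difference that was apart in the epiblast, at 15.4 and 5.22 in culture and 1.2 and 0.678 at E6.5 (adjusted p = 0.0255); its call was lost in 6 of the 8 fits without 1 library.

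In the other direction stood Sox17, the endoderm transcription factor, at 54.6 and 44.4 FPKM in cultured visceral endoderm and 1.9 and 2.12 at E6.5, with epiblast at 0 and 0 and 0 and 0.0481 (adjusted p = 0.0032). The call for Sox17 held in every fit without 1 library. Clps, pancreatic colipase, was at 21.9 and 21.9 in culture and 1.5 and 2.26 at E6.5 (adjusted p = 0.0014), and listed at 0 in epiblast in both. Pth1r, the receptor for parathyroid hormone-related protein known from parietal endoderm, was at 34.6 and 49.8 in culture and 5.22 and 7.23 at E6.5 (-2.45 ± 0.55, adjusted p = 0.0467), a call lost in 6 of the 8 fits without 1 library. Glrx, a glutaredoxin, differed through the epiblast: visceral endoderm was at 233 and 187 in culture and 262 and 274 at E6.5, and epiblast at 6.51 and 6.95 and 55.7 and 51.7 (-2.46 ± 0.43, adjusted p = 0.00581).

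**Figure D5:**
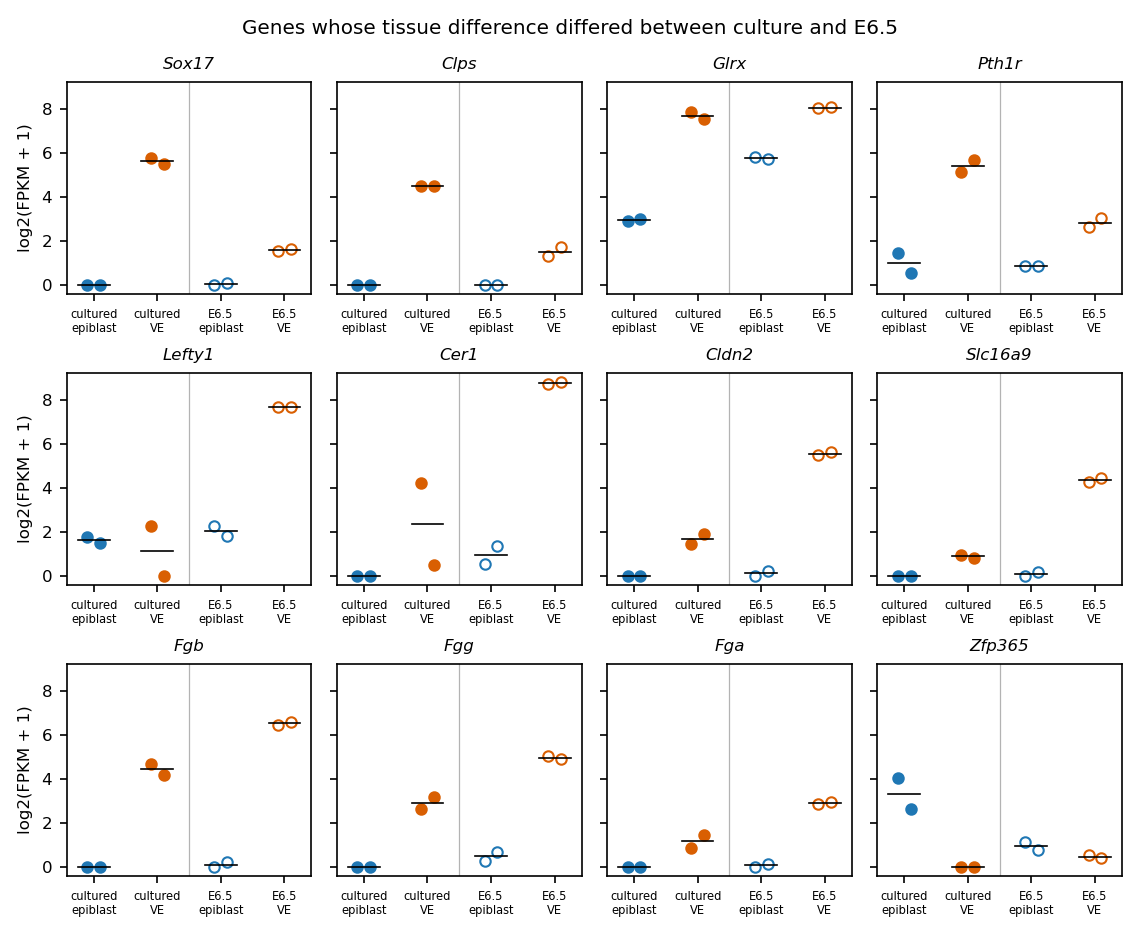
Level in each library, log2(FPKM + 1), of 12 named genes whose tissue difference was apart between culture and E6.5 by the test; filled points are cultured and open points E6.5 libraries, VE is visceral endoderm, and lines are means of n = 2 libraries. Sox17 and Clps are higher in cultured than in E6.5 visceral endoderm, Lefty1, Cer1, Cldn2 and Slc16a9 lower, and Glrx is lower in cultured epiblast than in E6.5 epiblast.

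Against E5.5, 1317 genes differed in the tissue contrast (9.76%), 220 with a difference above 0 and 1097 below, and the share above 0 was 16.7%. That split rests on scaling, since the median difference over all genes was -0.44. After quantile normalization 603 of 1018 calls were above 0 (59.2%), and with size factors 507 of 833 (60.9%). The count was 373 without cultured epiblast replicate 1, 541 without cultured epiblast replicate 2, 489 without E5.5 epiblast replicate 1, 663 without E5.5 epiblast replicate 2 and 238 without E5.5 visceral endoderm replicate 1. In a fit of the compared groups alone it was 281. Calls against E5.5 and against E6.5 share the 4 cultured libraries. The genes with the greatest difference among named genes were Lefty1 above 0 (5.21 ± 1.36, adjusted p = 0.023; E5.5 visceral endoderm 72 and 16.5 FPKM, epiblast 0.863 and 0) and Gpx2, an intestinal glutathione peroxidase, below 0 (-5.38 ± 1.08, adjusted p = 0.00617; visceral endoderm 0.253 and 2.35, epiblast 9.64 and 18). Hes1, a Notch target, was at 74.8 and 36.8 in E5.5 visceral endoderm and 1.94 and 0.142 in epiblast, and at 82.3 and 15.6 and 38.3 and 24.3 in culture (4.63 ± 0.86, adjusted p = 0.00421). Psat1, a serine synthesis enzyme, was at 7.62 and 8.34 in E5.5 visceral endoderm and 176 and 246 in epiblast, and at 89.8 and 145 and 97.9 and 122 in culture (-4.60 ± 0.53, adjusted p = 8.89e-05). The calls of Lefty1 and Gpx2 were lost in 5 and 1 of the 8 fits without 1 library, and those of Hes1 and Psat1 in none.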

How the data were processed

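RNA-seq libraries were compared from FPKM tables that the authors deposited, 1 value per gene and library. The submitters' processing notes name mm9, TopHat2 2.0.11 and Cufflinks 2.0.2. The cultured and in vivo libraries stand in tables that were normalised separately, and no counts or depths are given. From these values log2(FPKM + 1) was computed for the 22563 genes shared by the tables, and the 13493 genes that reached 1 FPKM in 2 or more libraries were tested. limma 3.58.1 in R 4.3.3 fitted 15 groups of 2 libraries in 1 model with a mean-variance trend (15 residual degrees of freedom). An exact permutation test of 2 libraries against 2 cannot go below p = 0.333, so none was used. The fit was tested on simulated data with independent errors and 1 spread per gene for all groups. That setting does not cover a group of wider spread, such as cultured visceral endoderm.

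Groups were taken from the labels. The comparison was proposed, and the 37 gene lists (733 genes) and the markers were chosen, with earlier results of these data known. Named genes are the 12 with the largest difference in each direction among called genes with at least 10 FPKM in the higher tissue and no overlap, the 6 largest for each difference of differences, up to 6 members of each list by adjusted p, those against a list's direction, all DNA methylation genes and the markers (a few genes these rules name are not reported here); a few others (Sall4, Lin28a, Lef1, Trf, Lrp2, Nodal, Ube3a, Vegfa, Krt18 and the like) were chosen from the lists after their values were seen. Other settings tried were another pseudocount, other filters, 2 scalings, array weights, a replicate block, a fit of the compared groups alone and leaving out each library; the size factors and the filter on cultured libraries were added after seeing the data.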

Additional observations from a re-analysis of the deposited data

Results flagged for a closer look

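The tissue difference after culture was set against that at E6.5 and at E5.5 by a test of the difference itself, and it differed for 59 genes against E6.5 and for 1317 genes against E5.5. The second count moved by over 1.5 times when any of 5 of the 8 libraries compared was left out, and with size factors. Lefty1 stood apart from both stages, with differences of differences of 6.15 against E6.5 and 5.21 against E5.5 on the log2(FPKM + 1) scale. The 2 values share the 4 cultured libraries, and each call of Lefty1 ended in most fits that left out 1 library. Against E6.5 the value was -2.46 for Glrx and -2.45 for Pth1r. For genes listed at 0 in both libraries of a group only the adjusted p is given: 1.82e-06 for Slc16a9, 1.41e-05 for Cldn2, 0.0014 for Clps, 0.0032 for Sox17, 0.00372 for Fga, 0.00389 for Fgb, 0.0155 for Cer1, 0.0255 for Zfp365 and 0.0394 for Fgg. The calls of Cer1, Fgg, Pth1r and Zfp365 against E6.5 also ended in most fits that left out 1 library. Against E5.5 the value was 4.63 for Hes1, -5.38 for Gpx2 and -4.60 for Psat1. No group of these comparisons holds the 4 libraries that a test for single outlying libraries requires, and the causes of these differences were not tested.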

How the results depend on the processing

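Deviations of same-numbered epiblast and visceral endoderm libraries correlated at -0.0127 in culture, 0.109 at E6.5 and 0.066 at E5.5. With so few libraries per group, these values cannot decide whether same-numbered libraries came from the same embryos. The labels do not say so either. With a replicate block, 3139 genes were called between the cultured tissues (1373 higher, 1766 lower), 58 for the difference from E6.5 and 979 for that from E5.5. The block ended the calls of Hells, Id1, Klf4 and Tet1 in culture and of Fgg, Lefty1 and Pth1r for the difference from E6.5, and no other call of a named gene.

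The count of 3300 calls between the cultured tissues stayed within 1.5 times under each alternative except the fit of the compared groups alone (1619 calls, 803 higher and 816 lower, with 161 list members called against 289). Leaving out 1 cultured library gave 2329 to 2954 calls, 1040 to 1458 higher and 1289 to 1611 lower, and 236 to 262 list members. Calls shared with E6.5 ranged from 1100 to 1599 with 1 library left out, against 1704.

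The 59 genes that differed from E6.5 became 19 with 0.1 FPKM added, 21 with a filter of 5 FPKM, 17 with the filter on the cultured libraries, 276 with array weights, and 36 to 246 with 1 library left out. The difference from E5.5, 1317 genes, became 833 with size factors, 281 in the fit of the compared groups alone and 238 to 1733 with 1 library left out. The cause of these shifts was not tested.

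Of the 237 values of named genes, 143 kept their direction and their side of the threshold under all alternatives. Turned in sign were Fgf8 in culture, which ran from -2.46 to 1.65 with 1 library left out, and Fgg for the difference from E6.5 with 0.1 FPKM added (-0.0135). In the fit of the compared groups alone 60 of 183 calls in culture ended; with any other alternative that kept all libraries at most 8 did. Without visceral endoderm replicate 1, Dnmt1, Nodal, Otx2 and Tdg were called higher in epiblast, and without replicate 2, Fgf8 and Sfrp1 were called higher in visceral endoderm. No depth is known, so the limit that sequencing sets on low genes could not be given.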
